A study of Mus musculus with 4 samples.

Results

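Libraries 7 and 8 of a mouse motor neuron differentiation experiment were compared here with libraries 1 and 2. The numbers are those of the columns in the deposited table, and the labels do not say what they stand for. The split was made from these numbers alone, holds all 4 libraries of the series and has 1 library without and 1 with doxycycline on each side. Its 11747 genes or gene groups are all those listed in the table.

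The cells came from the A172LoxP embryonic stem cell line, which was given a transgene for a transcription factor that is silent until the antibiotic doxycycline is added. Cells of both treatments, controls included, carried the transgene and were grown as embryoid bodies, which are floating aggregates of cells. All received 0.5 µM retinoic acid and 1 µM the Sonic hedgehog agonist purmorphamine for 2 days. They then spent 2 to 3 further days with vehicle (libraries 1 and 7) or with 2 µg/mL doxycycline (libraries 2 and 8). The sources used here do not give which library had 2 and which 3 further days, so time in culture and column number cannot be told apart. The labels do not name separate cultures behind the 2 libraries of a treatment, so the pair difference itself could be technical. Each p-value from the fit of doxycycline and pair sets that difference against its disagreement between treatments, pooled across genes. In bulk RNA, fewer cells of a type and less RNA per cell cannot be told apart.

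Embryoid bodies are mixed tissues. As background, their outer cells form extraembryonic endoderm, a layer under the control of Gata4, Gata6 and Sox17 that lays down a basement membrane of type IV collagen, laminin and nidogen. Cells inside become neural under retinoic acid, which also opens the Hox clusters, and motor neuron under Sonic hedgehog signalling, while the pluripotency factors Pou5f1 and Nanog are switched off. The 4 libraries all held transcripts of motor neuron genes. Mnx1, a homeodomain factor of motor neurons, was at 1658 and 1500.0 normalized counts in libraries 1 and 7, without doxycycline, and at 397 and 292 in libraries 2 and 8. Chat, which makes acetylcholine, was at 765, 365, 786 and 288 in libraries 1, 2, 7 and 8. Both genes were lower in the doxycycline libraries of each pair, while libraries 1 and 7 were close to each other.

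A normalized count is a read count divided by 1 size factor per library. The libraries summed to between 26449555 and 27047458 normalized counts, from an estimated 22434755 to 30235763 reads. Depth did not follow the split, since the deepest library was 8 and the next deepest was 1. Below, 4 values in a row are normalized counts in libraries 1, 2, 7 and 8. A difference is the mean log2 of libraries 7 and 8 minus that of 1 and 2, on log2(normalized count + 1), given ± SE from a fit with doxycycline as a covariate (n = 2 libraries on each side). This SE follows a gene's level and holds nothing of the gene's own spread. For Col4a1 it was 0.05, while the difference was 1.06 without and 1.36 with doxycycline.

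Col4a1 and Col4a2 encode the chains of the main type IV collagen, lie head to head and are transcribed in opposite directions. Their promoter windows are printed because both genes differed between the pairs, by 1.21 and 1.20 on the log2 scale (0.71 and 0.98 after quantile normalization). Each holds the 250 bases before and 50 after the annotated start, from RefSeq on GRCm38.p6, and the capitals mark the 78 bases that both windows share on opposite strands. The annotated starts lie 21 bases apart, each downstream of the other, so the first bases of both transcripts overlap on opposite strands. The Col4a1 window is chr8:11312777-11313076 on the minus strand and the Col4a2 window is chr8:11312555-11312854 on the plus strand.
Col4a1: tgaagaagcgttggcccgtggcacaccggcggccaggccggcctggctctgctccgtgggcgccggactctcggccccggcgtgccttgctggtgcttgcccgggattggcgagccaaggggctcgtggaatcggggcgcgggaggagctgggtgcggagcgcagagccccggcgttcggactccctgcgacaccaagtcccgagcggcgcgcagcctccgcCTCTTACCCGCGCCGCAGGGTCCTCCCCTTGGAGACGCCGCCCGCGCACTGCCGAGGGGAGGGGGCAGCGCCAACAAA
Col4a2: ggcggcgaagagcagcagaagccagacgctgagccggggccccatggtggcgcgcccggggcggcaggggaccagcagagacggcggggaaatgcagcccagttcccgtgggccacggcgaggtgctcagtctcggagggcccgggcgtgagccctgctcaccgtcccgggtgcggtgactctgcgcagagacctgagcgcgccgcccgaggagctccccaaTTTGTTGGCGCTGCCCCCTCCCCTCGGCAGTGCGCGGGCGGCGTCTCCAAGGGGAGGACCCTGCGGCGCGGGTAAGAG
Both windows are rich in G and C (74.0% and 73.7%). Neither holds AGATAA, a form of the GATA factor motif, or the octamer ATGCAAAT on either strand, which says only that these letters are not in these windows. Among the matched promoters of the table's genes, AGATAA stood in 5.8% of those of genes higher in libraries 7 and 8 (41 of 704), in 4.3% of those of genes lower there (22 of 506) and in 5.5% of all tested. The octamer stood in 1.7%, 2.6% and 1.4% of the same sets. The motifs do not overlap in their letters, and these shares are descriptions.

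Libraries 7 and 8 had higher levels of most basement membrane and extraembryonic endoderm genes and lower levels of most Hox genes, of H19 and of Pou5f1 than libraries 1 and 2, in both treatments. Of the 11747 genes, 974 were higher (8.29%) and 730 lower (6.21%) at an adjusted p under 0.05 (limma, Benjamini-Hochberg). Most differences were small, with a median of 0.38 among the genes higher and -0.29 among those lower, and 64 were higher and 29 lower by at least 2-fold. The median over all genes was -0.009. Both libraries of one side lay beyond both of the other for 32.6% of all genes (1937 higher and 1889 lower), and among the genes called for 772 of the 974 and 405 of the 730. In random order 2 against 2 libraries would do so in a share of 0.333, so the 32.6% sets no genes apart. Differences of the same sign in both treatments were found for 968 of the 974 and 728 of the 730.

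The number of calls depends on how the spread is estimated. With 4 libraries and both factors 1 residual degree of freedom is left, and the fit gave all genes of a level the same spread. Without this trend on level, each gene's own spread counts for more, and 368 genes were higher and 158 lower, so that 70% of the calls were higher in place of 57.2%. Of those 526 calls 487 were also made with the trend. Without doxycycline in the model none passed (limma; 703 genes had an unadjusted p under 0.05), and none passed with library 1, 2, 7 or 8 left out, which leaves room for 1 factor only. An exact permutation test of 2 libraries against 2 cannot go below p = 0.333. Of the single genes named below as higher or lower, those that lost the call without the trend are therefore given with that adjusted p or said to have lost it. Counts in the lists below stand beside 8.29% higher and 6.21% lower among all genes with the trend. Without it these were 368 and 158 of 11747.

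Doxycycline was the larger source of difference in the same fit. It accounted for 61.5% of the squared deviations of log2 values summed over all genes, the library pair for 31.4% and the remainder for 7.1%. The fit called 3508 genes for doxycycline, 148 of them by at least 2-fold, against 93 by at least 2-fold for the pair. Both contrasts use the same libraries.

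The treatments repeat each other on separate libraries, 7 against 1 without and 8 against 2 with doxycycline. Genes with a mean under 50 were set aside, and 61 were at least 2-fold higher in library 7 than in 1. Their median difference was 1.16 there and 1.08 between libraries 8 and 2, and all 61 were higher in library 8. The 34 genes at least 2-fold lower in library 7 had medians of -1.22 and -1.09, and all 34 were lower in library 8. In the other direction, 79 of the 82 genes at least 2-fold higher in library 8 and 30 of the 31 at least 2-fold lower had the same sign between 7 and 1. Across all genes the correlation of both differences was 0.63 (Pearson) and 0.47 (Spearman), and 65.2% had the same sign. Genes are not independent replicates, and no p is given.

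**Figure D1:**
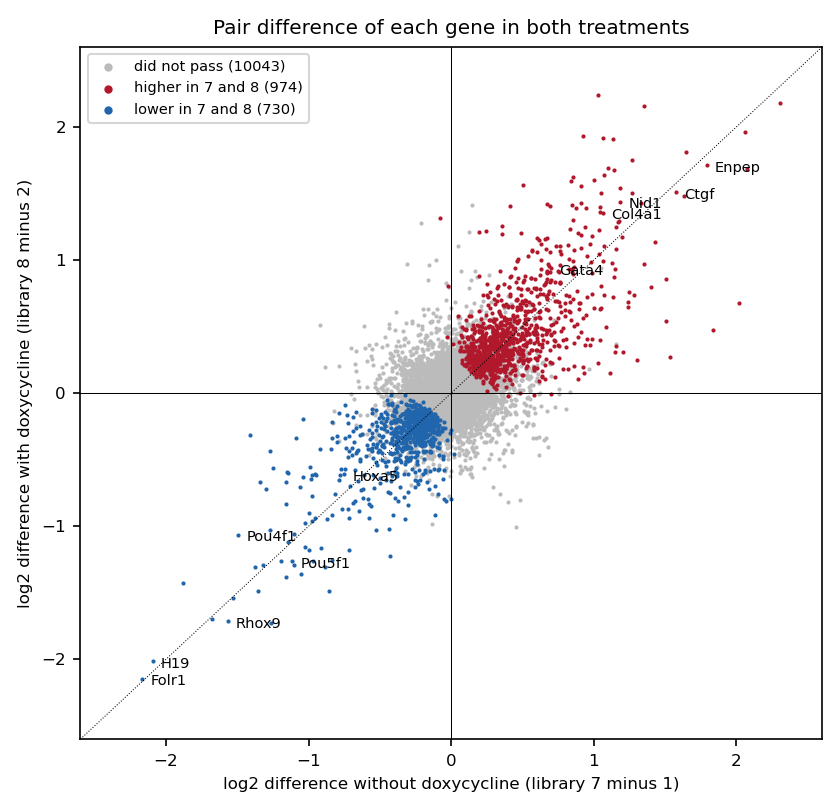
Each point is 1 of 11747 genes, with the log2 difference of library 7 minus 1 (no doxycycline) on the x axis and of 8 minus 2 (doxycycline) on the y axis. The dotted line marks equal differences; the 974 genes called higher (red) and 730 called lower (blue) stretch along it, from H19 and Folr1 at the lower left to Enpep and Ctgf at the upper right.

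Basement membrane genes were abundant and mostly higher in libraries 7 and 8. Of 26 listed members in the table (28 sought), 18 were higher and 1 lower, with 23 above 0 and a median of 0.58 (0.51 without and 0.60 with doxycycline). Without the trend 14 were higher and none lower. Col4a1 was at 132457, 96510, 276654 and 246997, a difference of 1.21 ± 0.05. The adjusted p from limma was 1.07e-136 with the trend, a size that comes from the shared spread, and 0.00799 without it. Col4a2 stood at 67247, 47515, 138295 and 121957, a difference of 1.20 ± 0.05. For both chains each of libraries 7 and 8 was far above libraries 1 and 2, and the doxycycline library of each pair was the lower. Together the list took 2.04% and 1.68% of all normalized counts in libraries 1 and 2, and 3.61% and 3.41% in 7 and 8.

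The 3 chains of laminin-111, the laminin of early embryonic basement membranes, differed by near-equal amounts. Lama1, the alpha chain, was at 65467, 49726, 115305 and 107579 (0.96 ± 0.05; limma without the trend, adjusted p = 0.0134). Lamb1, the beta chain, differed by 1.05 ± 0.05 and Lamc1, the gamma chain, by 0.97 ± 0.05. Nid1, which encodes nidogen 1, the link between laminin and collagen IV, was at 7157, 4835, 16245 and 13063 and had the largest difference of the list, 1.31 ± 0.05 (limma without the trend, adjusted p = 0.00646). Nid2 was higher by 0.88 ± 0.05 and Sparc, a collagen-binding matrix protein, by 1.05 ± 0.05. In all 6 of these genes libraries 7 and 8 were both above 1 and 2, as in 772 of the 974 genes called higher.

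Enzymes that modify and fold collagen were also higher. They include Plod2 (0.76 ± 0.05) and Plod1, lysyl hydroxylases, P4ha1 and P4ha2, subunits of prolyl hydroxylase, and Serpinh1, the collagen chaperone, at 20178, 17709, 31741 and 31212 (0.74 ± 0.05). P4ha2 differed by 0.72 ± 0.05 but by 0.46 without and 0.99 with doxycycline, and lost the call without the trend (limma, adjusted p = 0.0532). Other basement membrane genes did not follow. The collagen IV chains Col4a5 (0.18 ± 0.10) and Col4a6, the laminin chain Lama5 and fibronectin (Fn1) did not pass, and Col18a1, which encodes collagen XVIII, was lower at -0.14 ± 0.05, a call lost without the trend (limma, adjusted p = 0.357).

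Extraembryonic endoderm genes had a median of 0.70 (0.56 without and 0.85 with doxycycline). Of 23 in the table (33 sought), 17 were higher and 3 lower, and without the trend 13 and 2. Gata4, a zinc finger factor that specifies this layer, was at 4460, 3382, 7239 and 6476 (0.82 ± 0.06; limma without the trend, adjusted p = 0.0152). Its relative Gata6 was at 1777, 1208, 2632 and 2539 (0.82 ± 0.07; adjusted p = 0.0373 in limma without the trend). Sox17, another factor of endoderm, was higher by 0.87 ± 0.09 and Foxa2 by 0.82 ± 0.09. Foxa2 also marks the floor plate of the neural tube.

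The proteins by which visceral endoderm takes up nutrients followed. Lrp2, the endocytic receptor megalin, was at 1871, 1491, 2976 and 2818 (0.79 ± 0.07), and Dab2, its adaptor, at 2986, 2597, 5888 and 5131 (0.98 ± 0.06). Cubn, the partner receptor cubilin, differed less, with 3877, 3453, 4388 and 4118 and a difference of 0.22 whose call was lost without the trend (limma, adjusted p = 0.183). Rbp4, the retinol carrier of serum, was higher by 1.16 ± 0.10 and Thbd, which encodes thrombomodulin of parietal endoderm, by 1.49 ± 0.14. Fst, which encodes follistatin, an inhibitor of activin, was at 3319, 2392, 6233 and 5098 (1.00 ± 0.06). Sox7 was higher with doxycycline (1.21) and close to level without it (0.20), and lost the call without the trend (limma, adjusted p = 0.180).

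The 3 members that were lower were the keratins of simple epithelium. Krt18 was at 3942, 5563, 2937 and 3525 (-0.54 ± 0.06), Krt19 differed by -0.44 ± 0.08 and Krt8 by -0.28 ± 0.06, the last without a call when the trend was left out (limma, adjusted p = 0.144). In each keratin both of libraries 7 and 8 were below both of 1 and 2, as in 405 of the 730 genes called lower. The list was therefore not uniform.

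**Figure D2:**
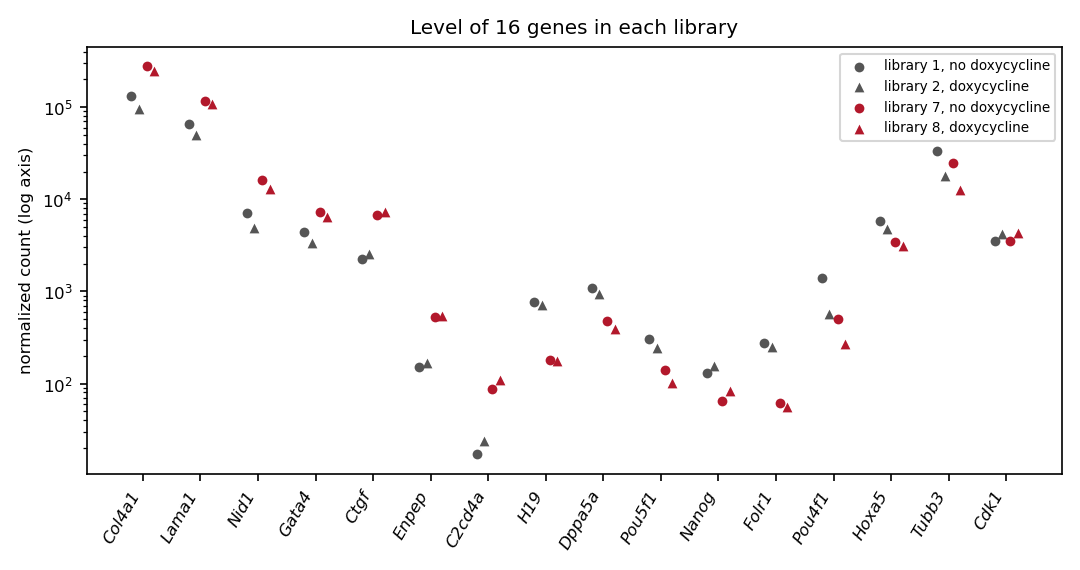
Normalized count (log axis) of 16 genes in libraries 1 and 2 (grey) and 7 and 8 (red), circles without and triangles with doxycycline. The red points lie above the grey ones from Col4a1 to C2cd4a and below them from H19 to Folr1 and for Hoxa5, whereas Tubb3 and Pou4f1 also shift with doxycycline and Cdk1 is near level.

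The largest rises among named genes outside these lists were at lower counts. C2cd4a was at 17.0, 23.6, 88.0 and 110 (2.24 ± 0.31; limma without the trend, adjusted p = 0.00182). Every row of the table holds at least 101 estimated reads in some library, so C2cd4a is listed only through its high side. Enpep, which encodes the cell surface enzyme aminopeptidase A, was at 153, 165, 531 and 542 (1.75 ± 0.13), with almost no difference by doxycycline. Tspan8, a tetraspanin, was at 282, 279, 875 and 783 (1.56 ± 0.11). Nepn, which encodes nephrocan, differed by 1.73 ± 0.12. F2, the clotting factor prothrombin, was at 50.9, 33.0, 105 and 160 (1.64 ± 0.24), and Myl3, a myosin light chain, at 41.1, 37.7, 106 and 172 (1.75 ± 0.24). F2 and Myl3 reached 101 estimated reads in library 8 only, so both are listed through that library alone. All 25 of the largest rises passed limma without the trend except Aldh1a1, which makes retinoic acid (1.35 ± 0.21; adjusted p = 0.0780), with 34.0, 118, 141 and 189. Aldh1a1 and others of the 25 are also listed only through their high side.

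Genes of mesenchyme and its matrix were divided, with 10 of 25 higher, 5 lower and a median of -0.04 (5 higher and 4 lower without the trend). Ctgf, a matrix-associated growth regulator, was at 2264, 2548, 6739 and 7244 (1.54 ± 0.06; limma without the trend, adjusted p = 0.00285). Pdgfra, a receptor of platelet-derived growth factor found on primitive endoderm and mesenchyme alike, was at 1829, 1304, 3534 and 2666 (0.99 ± 0.07). Cyr61, a close relative of Ctgf, was at 996, 1468, 994 and 1261 and did not pass (-0.11 ± 0.08). Other members were lower. Tagln, a protein of smooth muscle, was at 1919, 2130, 943 and 1082 (-1.0 ± 0.07), Acta2, smooth muscle actin, at 837, 520, 376 and 344 (-0.87 ± 0.11), and the calcium-binding S100a6 differed by -1.15 ± 0.19. By the same limit on reads as for C2cd4a, S100a6 is listed only through its high side, libraries 1 and 2. Of the fibrillar collagens Col1a2 was higher and Col3a1 lower, both without a call when the trend was left out (limma, adjusted p = 0.0691 and 0.132), and Col1a1 did not pass (-0.04).

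Pluripotency genes moved in both directions. Of 19 in the table (31 sought), 10 were lower, 5 higher and 4 did not pass, with a median of -0.35 (-0.32 without and -0.39 with doxycycline). Pou5f1, which encodes Oct4, was at 307, 243, 141 and 101 (-1.19 ± 0.16; limma without the trend, adjusted p = 0.00573). Nanog was at 130, 156, 64.4 and 82.9 (-0.95 ± 0.21; adjusted p = 0.00745 in limma without the trend). It was under the limit of 101 estimated reads in libraries 7 and 8, so Nanog is listed only through its high side, libraries 1 and 2. Dppa5a, a stem cell marker, stood at 1087, 929, 475 and 386 (-1.23 ± 0.10), and Tdh, the threonine dehydrogenase of mouse stem cells, at 370.0, 252, 144 and 89.1 (-1.42 ± 0.16). Esrrb, Zfp42, Dppa4, L1td1, Lefty1 and Tbx3 were the other members that were lower, and Tbx3 alone of the 10 lost its call without the trend (limma, adjusted p = 0.0636). Lefty1, like Nanog, is listed only through libraries 1 and 2. In all 10, libraries 7 and 8 were both below 1 and 2, as in 405 of the 730 genes called lower.

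The other 5 members that were called were higher. Klf4, a zinc finger factor of epithelia, was at 617, 432, 873 and 769 (0.67 ± 0.10) and Klf5 at 435, 298, 602 and 542. Sall4, which extraembryonic endoderm shares with stem cells, was at 1069, 887, 1405 and 1387 (0.52 ± 0.08). Mybl2, a cell cycle factor, and Lin28a were higher too, the latter without a call when the trend was left out (limma, adjusted p = 0.141), while Tet1, Dnmt3b, Lin28b and Trim71 did not pass. Because Lin28a and Mybl2 hold many of the counts, the list summed to 13505, 12263, 14216 and 13675 normalized counts, which does not follow its median.

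Of 6 germ cell genes in the table, 2 were lower and none higher. One of them, Rhox9, a homeobox gene of the X-linked Rhox cluster, was at 422, 376, 142 and 114 (-1.64 ± 0.14) and its near copy Rhox6 at 541, 413, 219 and 250 (-1.01 ± 0.12). Reads of such close copies may have been split between them, so each value is uncertain. Folr1, the folate receptor, had the largest fall of all named genes, with 279, 250, 61.2 and 55.6 (-2.16 ± 0.19; limma without the trend, adjusted p = 0.00182). By the same limit on reads, Folr1 is listed only through its high side, libraries 1 and 2. Tcfap2c, a transcription factor of trophoblast and germ cells, was at 152, 152, 67.6 and 84.7 (-1.0 ± 0.20). It too is listed only through libraries 1 and 2. Of 17 listed epithelial genes, 5 were lower, among them Cldn4 (-0.59) and Cdh1, and 3 higher, among them Epcam. Without the trend 2 were lower and none higher, and Cdh1 and Epcam lost the call (limma, adjusted p = 0.144 and 0.137).

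H19, an imprinted noncoding RNA expressed from the maternal copy, was the imprinted gene with the largest difference. It was at 769, 706, 179 and 174 (-2.06 ± 0.12; limma without the trend, adjusted p = 0.00182). The libraries of a side were close to each other, and the mean of 7 and 8 was 0.241 times that of 1 and 2 on the fitted scale. Igf2, its neighbour expressed from the paternal copy, was at 22519, 29841, 26633 and 28250 and did not pass (0.08 ± 0.05). Of 15 maternally expressed genes 2 were lower, H19 and Cdkn1c (-0.35 ± 0.05), and none higher. The call of Cdkn1c was lost without the trend (limma, adjusted p = 0.0624). Of 21 paternally expressed genes 5 were lower and 1 higher, with a median of -0.07, and without the trend 1 was lower and none higher. The 5 were Magel2 (-0.495), Mkrn3 (-0.383), Peg10 (-0.264), Ndn (-0.191) and Snrpn (-0.191), and Dlk1 (0.20) was the 1 higher. Only Magel2 of these kept its call without the trend (limma, adjusted p = 0.0289). Rian (-0.09), Peg3 (0.03), Mest (0.04) and Grb10 (-0.08) were among the imprinted genes that did not pass.

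Hox genes were lower across all 3 groups of paralogs. Retinoic acid turns on the early groups first, and later groups mark more posterior levels of the spinal cord. Of 7 genes in groups 1 to 3, 5 were lower, of 9 in groups 4 to 6, 6 were lower, and the 4 genes of groups 7 to 9 were all lower, with medians of -0.39, -0.43 and -0.58. None was higher. Hoxa5 was at 5789, 4746, 3436 and 3108 (-0.68 ± 0.06; limma without the trend, adjusted p = 0.0166). Hoxb8 was at 7181, 5971, 4293 and 4724 (-0.54 ± 0.06), Hoxb9 at 1653, 2023, 1037 and 1355 (-0.62 ± 0.07) and Hoxd8 at 346, 327, 156 and 215 (-0.87 ± 0.14). Each of these genes was lower in both treatments. The HoxC genes Hoxc4 (-0.08) and Hoxc5 (-0.12) and the HoxD genes Hoxd3 (0.10) and Hoxd4 (-0.14) did not pass. Without the trend 6 Hox genes were called, Hoxb8 not among them (limma, adjusted p = 0.0668).

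**Figure D3:**
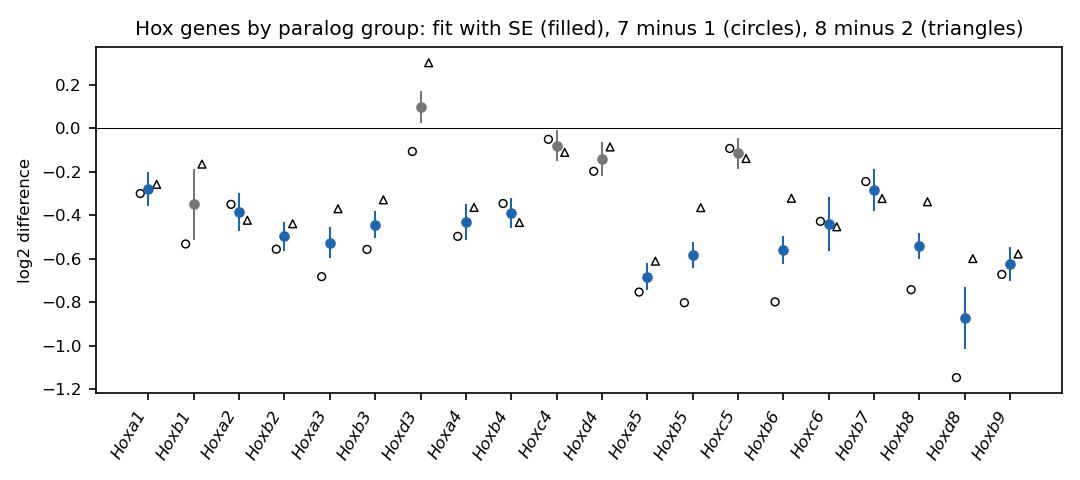
Log2 difference of 20 Hox genes, ordered by paralog group, as the fitted value of libraries 7 and 8 minus 1 and 2 with its SE (filled, blue where called, grey where not), as library 7 minus 1 (circles) and as library 8 minus 2 (triangles). All but Hoxd3 lie below 0 in the fit, and Hoxc4, Hoxd4 and Hoxc5 lie near 0. The SE follows a gene's level and not its own spread.

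Genes of retinoic acid handling were mixed, with 5 of 18 higher, 8 lower and a median of -0.10. Cyp26b1, which degrades retinoic acid, was at 15949, 13846, 9354 and 9311 (-0.67 ± 0.05), and Dhrs3, which reduces its precursor retinal, at 1397, 1468, 706 and 937 (-0.81 ± 0.08). Both are targets of the pathway, and both passed limma without the trend (adjusted p = 0.0204 and 0.0214). The receptor genes Rara and Rarb were lower by smaller amounts, -0.22 and -0.32, and lost the call without the trend (limma, adjusted p = 0.172 and 0.0749). Cyp26a1, another degrading enzyme, did not pass (0.14), and the binding proteins Crabp1 (0.34) and Crabp2 (0.18) and the retinol transporter gene Stra6 (0.38) were higher. None of the 5 higher members passed without the trend (limma, adjusted p = 0.0686 for Crabp1 and 0.0638 for Stra6).

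Neuronal genes were lower by small amounts. Of 44 pan-neuronal genes 27 were lower and 1, the neurofilament gene Nefm, was higher, with a median of -0.21, equal to -0.20 in each treatment. Without the trend 3 were called lower, Tubb3, Mtap2 and Nefh, and none higher. Tubb3, the tubulin of neurons, was at 33347, 18102, 24521 and 12679 (-0.48 ± 0.05; limma without the trend, adjusted p = 0.0323). Doxycycline made a larger difference than the pair, with a list median of -0.77. Both libraries of a side lay apart in 1 gene in each direction, against 32.6% of all genes. Of 28 genes of neurogenesis 14 were lower and 1 higher, with a median of -0.24. They include Gadd45g (-0.47), Hes6 (-0.40) and St18 (-0.57). Without the trend 2 of the list were lower and none higher, and Hes6 and St18 lost the call (limma, adjusted p = 0.0691 and 0.0925).

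Motor neuron genes held 11 lower and 3 higher members of 29, with a median of -0.20 (-0.08 without and -0.27 with doxycycline). Without the trend 3 were lower and 2 higher. Pou3f1, a POU factor, was lower (412, 281, 212 and 183; -0.78 ± 0.14). Isl2, a LIM factor of motor neurons, was higher, at 493, 86.1, 783 and 120 (0.57 ± 0.14), and Isl1, its relative, was at 2331, 739, 2183 and 437, a difference of -0.09 without and -0.76 with doxycycline. Its call was lost without the trend (limma, adjusted p = 0.227). Pou4f1, a factor of sensory neurons, had a large difference, at 1413, 562, 501 and 268 (-1.28 ± 0.10).

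Progenitor genes leaned higher, with 12 of 30 higher, 2 lower and a median of 0.12 (7 higher and none lower without the trend). Shh, the ligand of floor plate, was at 34.0, 55.4, 54.8 and 125 (0.92 ± 0.27). Only library 8 reached the limit of 101 estimated reads, so Shh is listed through that high-side library alone. Library 7 did not exceed library 2, and the call was lost after quantile normalization (0.72). Nkx2-2, a factor of the progenitors next to the floor plate, was at 52.7, 383, 92.3 and 613 (0.74 ± 0.16). Olig2, the factor of motor neuron progenitors, was at 2492, 2891, 2835 and 3160 and did not pass (0.16 ± 0.06). The Sonic hedgehog response list had 5 of 14 higher and none lower, with a median of 0.03. Hhip, a target that binds the ligand, was higher by 0.54 ± 0.10, while Gli1, the usual readout of the pathway, did not pass (0.17). Ptch1, also of this list, was higher by a similar 0.195 ± 0.056, a call lost without the trend (limma, adjusted p = 0.277).

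**Figure D4:**
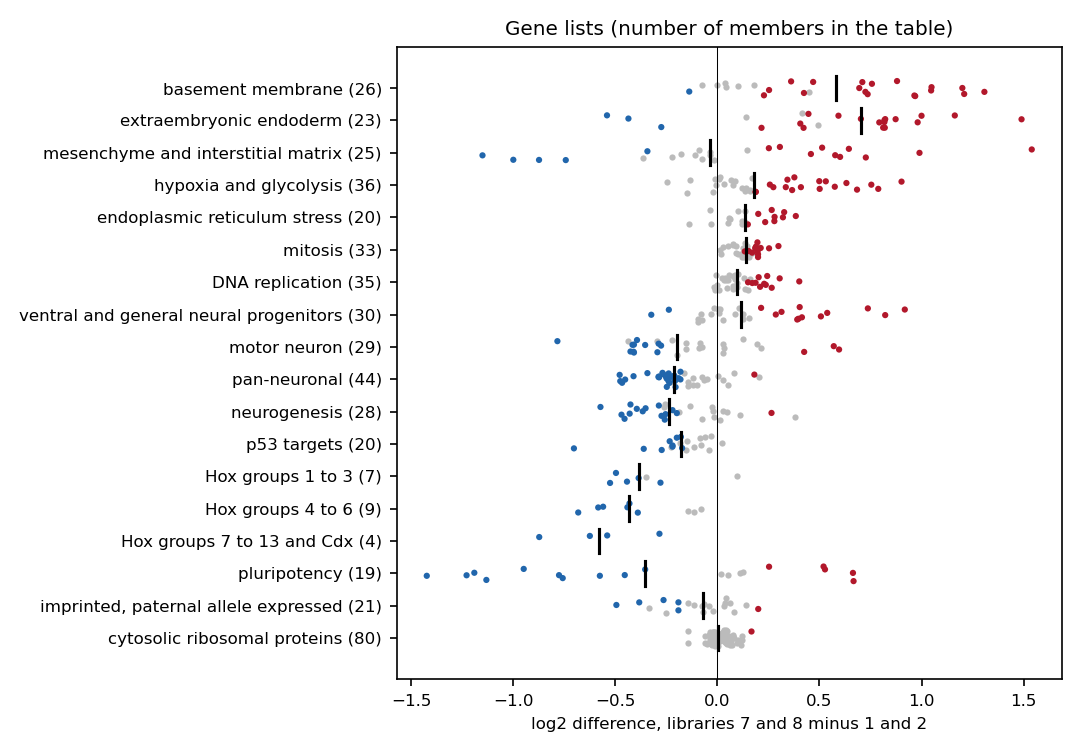
Log2 difference of libraries 7 and 8 minus 1 and 2 for each member (points; red called higher, blue called lower, grey not called) of 18 gene lists, with the median as a black bar and the number of members in the table in brackets. Basement membrane and extraembryonic endoderm lie farthest to the right, the Hox and pluripotency lists to the left, and cytosolic ribosomal proteins gather around 0.

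Members of other signalling pathways differed one by one. Among 29 Wnt pathway genes 8 were higher and 3 lower (1 and 2 without the trend), with Fzd5, a receptor, at 164, 144, 358 and 284 (1.05 ± 0.15), and Sfrp5, a secreted inhibitor that visceral endoderm also makes, at 422, 160, 114 and 59.1 (-1.65 ± 0.18). Without the trend the share of Wnt genes higher was near that of all genes (368 of 11747). Among 20 genes of BMP and TGF-beta signalling 5 were higher, Bmp2 and Tgfbr2 among them, and 2 lower, the inhibitors Smad6 and Smad7. Smad6 lost the call without the trend (limma, adjusted p = 0.0615). Of 15 FGF response genes 3 were higher, with Fgfr4 at 0.88, and 1 lower.

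Hypoxia and glycolysis genes were higher in 18 of 36 cases and lower in none, with a median of 0.34 without and 0.10 with doxycycline. Library 1 stood apart here. Ldha, lactate dehydrogenase, was at 9490, 17465, 17244 and 20076, and Slc16a3, a lactate exporter, at 677, 1937, 1964 and 2333, so that the other 3 libraries were closer to each other than to library 1. Both lost the call without the trend (limma, adjusted p = 0.151 and 0.167), and 3 of the list kept it. Egln3, an oxygen-sensing hydroxylase, was one of them (348, 377, 649 and 604; 0.79 ± 0.11). Slc2a1, the glucose transporter, did not pass (-0.13 ± 0.05).

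Genes of endoplasmic reticulum stress, which include folding enzymes, chaperones, the transcription factor Xbp1 and the degradation factor Edem1, were higher in 9 of 20 cases and lower in none, with a median of 0.13. Pdia6, a disulfide isomerase, was at 13387, 12467, 17176 and 16553 (0.38 ± 0.05). None of the 9 passed without the trend. The list of heat shock and immediate early genes had 6 of 18 lower and 1 higher, and without the trend 1 lower. The 6 were Hspb1, Hsph1, Hspa8 and Hsp90aa1 of the heat shock response and the immediate early genes Fos and Dusp1, with Hspb1, a small heat shock protein, at 1284, 1022, 573 and 642 (-0.92 ± 0.09). Of 20 targets of p53, 9 were lower and none higher. Without the trend 1 was lower, Perp, a membrane protein of p53-driven death, at -0.70 ± 0.15.

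Cell division genes differed little but in 1 direction. All 33 mitosis genes had values above 0 and 12 were called higher, with a median of 0.14 and none above 0.30. Of 35 replication genes 11 were higher and none lower, with a median of 0.10. None of these 23 calls stood without the trend. Ribosomal protein genes of the cytosol had a median of 0.00, with 1 of 80 called, and none of 25 splicing genes was called. Genes of the respiratory chain had a median of -0.06, with 68 of 84 below 0, 4 called lower and none higher. Proteasome genes had a median of -0.10, with 31 of 34 below 0, 5 called lower and none higher. No respiratory chain or proteasome gene was called without the trend. Of 14 noncoding and nuclear-retained RNAs 2 were higher and 2 lower, with a median of 0.10, and none was called without the trend. Neat1 (0.48) and Snhg11 (0.20) were higher. Malat1 (-0.44 ± 0.05) and Miat (-0.38 ± 0.05) were lower (-0.69 and -0.52 without, -0.18 and -0.24 with doxycycline), with adjusted p = 0.151 and 0.0945 in limma without the trend.

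**Figure D5:**
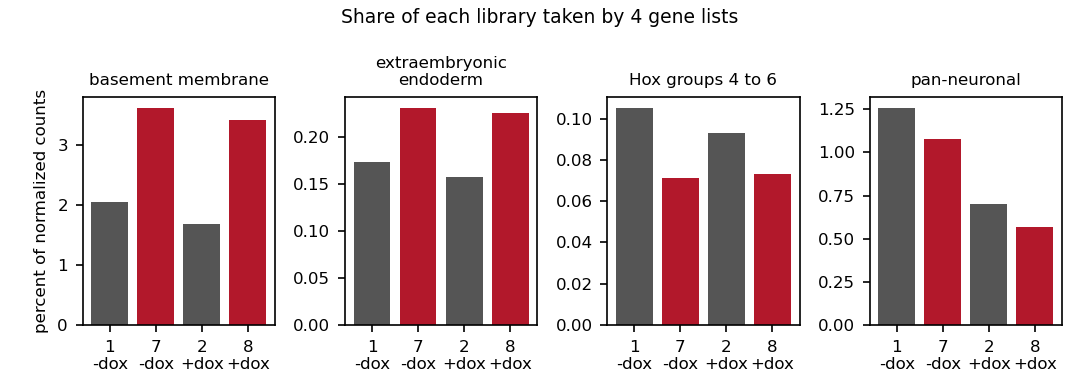
Percent of all normalized counts of a library taken by the members of 4 gene lists, bars from 0, with libraries ordered 1, 7 (no doxycycline), 2 and 8 (doxycycline) and 7 and 8 in red. The basement membrane list rises from 2.04% to 3.61% without doxycycline and from 1.68% to 3.41% with it, and the pan-neuronal list changes more with doxycycline than with the library pair.

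Markers of some other cell types were few. Of 6 genes of endothelium and blood, 2 were higher, Flt1 (0.72) and Tek (0.47), while Kdr and Cdh5 did not pass. Of 8 genes of mesoderm and heart 2 were higher and 3 lower. No gene of the Y chromosome, of X inactivation or of the mitochondrial genome is listed in the table. Calls of both directions were more frequent among genes rich in G and C. There were 140 higher and 142 lower in the 2918 poorest genes and 296 and 239 in the 2918 richest, and the median G and C content was 51.8% in genes higher, 51.7% in genes lower and 49.9% in all genes. The part of base composition in the calls was not tested. In the 2918 genes richest in G and C the median was -0.04 between libraries 7 and 1 and 0.06 between 8 and 2, and in the 2918 poorest 0.01 and -0.07. Median transcript length was 3571 bases in genes higher, 3669 in genes lower and 3534 in all genes.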

How the data were processed

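RNA was sequenced in 4 libraries on an Illumina HiSeq instrument after TruSeq preparation, per the labels' protocols. The authors deposited 1 table of normalized counts, a signal per gene that the values show to be reads divided by 1 size factor per library. CASAVA, TopHat2, HTSeq and DESeq and the build mm9 are named in the submitters' processing notes, without versions. Column initials gave the treatment. Column numbers differ from the labels' replicate numbers, and no column was assigned to a single sample. Every row holds at least 101 estimated reads in some library, so weaker genes are not analysed here. A gene with fewer reads than this on one side is listed only through the other side, and no correction was made for that. The values of 1 read (0.882 to 1.18 normalized counts) gave the estimated depths, but no count model was fitted.

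Differences were tested with limma 3.58.1 (R 4.3.3) on log2(value + 1), with doxycycline and the pair as terms, an intensity trend and a mean of at least 10, which removed no row. The fit was run on simulated data in which spread depended on level alone. That run cannot show how the fit does where genes of a level differ in spread. The sources used here do not say if counting was stranded, so antisense and overlapping genes cannot be told apart. The members and the 47 lists were chosen with earlier results of these data known. Single genes were named by rule: the given markers (Col4a1, Lama1, Gata4, Pou5f1 and H19), the 25 largest rises and falls among called genes with a mean of at least 50, and up to 6 members per list with the smallest p. Members named outside the rule were chosen after their values were seen, to show the range of a list. Promoters came from a RefSeq table on GRCm38.p6, which also gave symbols for 375 rows. The induced gene is not reported here. Alternatives were other pseudocounts, filters, scalings, spread models and model terms, and each library left out. Tables were handled with Python 3.11.15 and pandas 2.3.3, and plots with matplotlib 3.10.9.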

Additional observations from a re-analysis of the deposited data

Results flagged for a closer look

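Nog, which encodes the BMP inhibitor noggin, differed by -0.08 between libraries 7 and 1 and by 1.31 between 8 and 2, with 194, 84.9, 184 and 213 normalized counts in libraries 1, 2, 7 and 8. The opposite signs drew attention to it, and the difference between treatments was not tested. Library 2 was the low one. The median of the mesoderm and heart list was 0.21 without and -0.16 with doxycycline, and that of the epithelium and surface ectoderm list 0.12 and -0.11. These opposite signs were not tested either.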

How the results depend on the processing

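No paired analysis was possible on the labels' replicate numbers because the columns carry other numbers. The fit itself holds doxycycline fixed for the pair, which sets 7 against 1 and 8 against 2, and the column-number pair fixed for doxycycline. TMM factors, quantile normalization, robust empirical Bayes, pseudocounts of 0.5 or 5, a minimum mean of 50 and no filter kept the 3 counts (974 higher, 730 lower, 3508 for doxycycline) within 1.5 times. Without the intensity trend they were 368, 158 and 1700. At a minimum of 2-fold they were 64, 29 and 148, and at 1.5-fold in each treatment, a setting chosen after seeing the data, 154 and 62 for the pair. Without doxycycline as a covariate they were 0 and 0, and without the pair 278 for doxycycline. With each library left out, which leaves room for 1 factor only, the pair gave 0 and 0 each time and doxycycline 44 (without library 8) to 494 (without library 7). In these fits 13 to 166 of the 1704 genes called for the pair changed sign. Of the 231 named genes called, 7 lost the call with TMM factors, 12 with quantile normalization, 114 stayed called without the trend, and Nog alone changed sign, to -0.08 without doxycycline. Scaling moved the median of all genes from -0.009 to between -0.013 and -0.004. With 2 libraries a side no exact test reaches 0.05, so single calls rest on the spread shared across genes.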
